A study of Sparus aurata with 30 samples.

Results

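In the marine teleost Sparus aurata (gilthead sea bream), intestine was set against liver and head kidney by transcript counts from RNA sequencing. The 10 intestine libraries, of 30 libraries in the series, were taken by their tissue label. Of these, 5 came from fish on a control diet and 5 from fish fed SDY, spent brewing yeast in dried form. SDY was included at 30%, and 10% of the fish meal and 31.4% of the protein of plant origin were taken out in exchange. The other side held 10 liver libraries, 5 of each diet, and 8 head kidney libraries, 3 control and 5 SDY. Head kidney is the organ in which bony fish form blood cells and mount immune responses, and it also holds steroid- and catecholamine-making cells. Each group's fish were picked at random, per the labels' protocols. Age, sex, strain, gut segment, tanks, and whether one fish gave several tissues are not given in the sources used here, so p-values measure the spread between these libraries. A gene's level is given as CPM, counts scaled to a common library total, and a difference as a log2 fold change from an edgeR fit with diet as a covariate.

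The 28 libraries held between 9276705 and 20580440 counts each. Head kidney control replicates 1 and 3 were left out throughout by the rule that chose the libraries. Replicate 1 held 926 counts. Replicate 3 averaged 969.9 CPM over the hepatocyte list, against 4.33 to 5.77 CPM in the 8 head kidney libraries used. Liver SDY replicate 2 carried traces of intestinal transcripts and is given separately for slc12a1, slc4a4 and si only. It also held the highest liver value of other genes named below, among them enpep, asah2, cd36, acsl5, slc5a1 and anks4b. All liver counts of tmprss15 and fev came from it.

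The wall of the intestine is lined by absorptive cells whose upper face is folded into microvilli, the brush border, which carries digestive enzymes and transporters. Mucus-secreting goblet cells and hormone-secreting enteroendocrine cells lie among them, and layers of smooth muscle, connective tissue and enteric neurons lie beneath. In marine fish the intestine also takes up salt and water from swallowed sea water. The cotransporter slc12a1, which moves sodium, potassium and chloride into the cell, and the sodium bicarbonate cotransporter slc4a4 serve this task, and both were given as markers of the tissue.

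Both markers were high in every intestine library and near 0 in the liver and head kidney libraries used. The slc12a1 gene (chr4:8470422-8493357, reverse strand, assembly fSpaAur1.1) had a lowest value of 2085 CPM, a median of 4169 CPM and a highest of 6163 CPM over the 10 intestine libraries. In liver it ran from 0 to 8.38 CPM, with a median of 0.151 CPM, and in head kidney from 0.718 to 2.08 CPM. The slc4a4 gene (chr5:19678316-19739249, forward strand) had 167.3, 275.7 and 522.3 CPM as its lowest, median and highest intestine values, against at most 1.22 CPM in liver and 0.273 CPM in head kidney. None of the liver and head kidney libraries used reached the intestine range of either gene. The left-out head kidney control replicate 1 had 7559 CPM of slc12a1 and 1080 CPM of slc4a4, from 926 counts in all. At that total any count of slc4a4 lies above its intestine range, so these values do not place the library against that range. Against liver the log2 fold changes were 10.99 (SE 0.85) for slc12a1 and 9.52 (SE 0.57) for slc4a4, and against head kidney 12.03 (SE 0.98) and 11.39 (SE 0.66), with edgeR adjusted p of at most 1.29e-14 for slc4a4 and 1.21e-11 for slc12a1. Liver SDY replicate 2 held the highest liver value of both genes, and without it the fold changes against liver were 12.26 and 10.81. The label of the tissue and its markers went together in all 10 intestine libraries.

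Over all 20296 genes tested, 4702 were higher in intestine than in both other tissues (23.2%) and 3188 were lower than in both (15.7%). These shares are the background for the counts of list members given below. Genes near 0 in liver and head kidney passed the filter on low counts only through intestine. For such genes a call as higher was nearly fixed beforehand, among all genes as among list members. List members all have a symbol, and of the 9210 tested genes with a symbol 18.4% were higher and 20.4% lower than in both. The call needed a Benjamini-Hochberg adjusted p of at most 0.05 by edgeR in both contrasts, with the same sign. Both contrasts share the intestine libraries, so they are not independent of each other. Against liver alone 8799 genes were higher (43.4%) and 7208 lower (35.5%), and against head kidney alone 7752 (38.2%) and 7165 (35.3%). A stricter set asked in addition for at least a 4-fold difference in both contrasts. It held 2245 genes higher in intestine (11.1%) and 359 lower (1.77%). These 2 shares are the background for counts of list members at least 4-fold apart. In bulk tissue, fewer cells of a type and less RNA per cell cannot be told apart.

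The split into higher and lower depends on how libraries are made comparable. TMM scaling, used for every fold change here, gave factors of 0.42 to 0.63 in liver, 1.07 to 1.49 in intestine and 1.44 to 1.70 in head kidney, and a median over all genes of 0.17 against liver and 0.03 against head kidney. With plain library totals these medians were 1.38 and -0.26, and 5123 genes were higher and 1123 lower than in both tissues. The 4-fold sets then held 2507 and 257 genes, of which 2071 and 220 were in the sets used here. Because levels are printed as CPM by plain total, a gene can have a higher CPM in intestine than in liver and a fold change near 0.

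**Figure D1:**
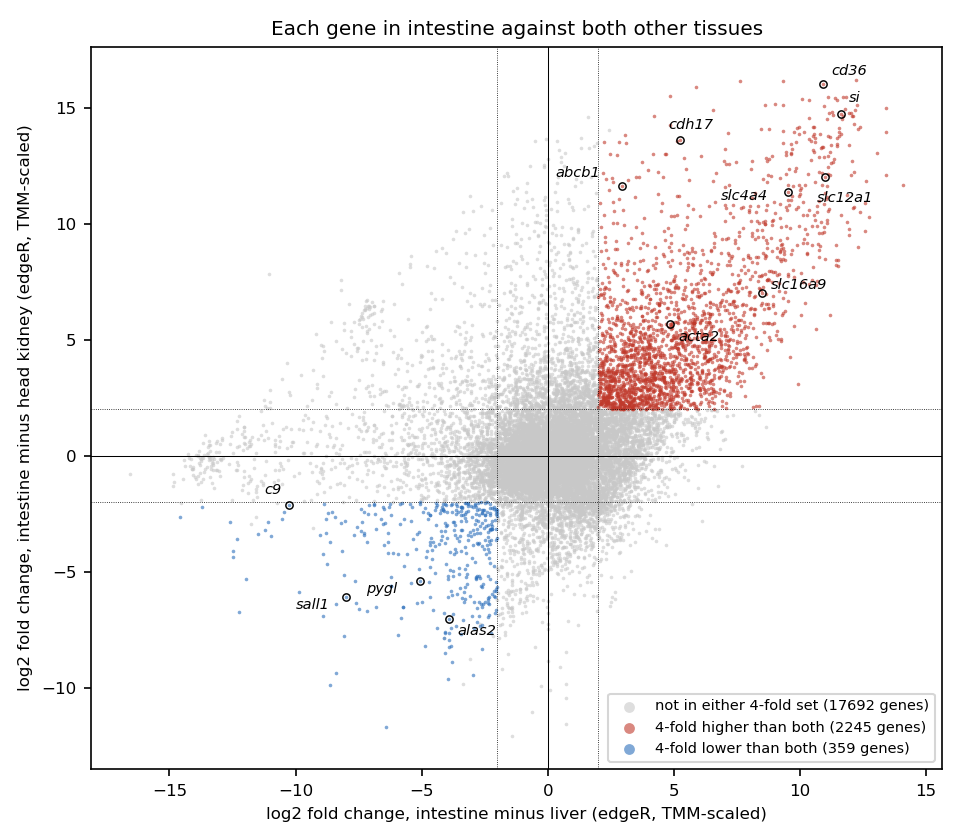
Log2 fold change of each tested gene in intestine against liver (x axis) and against head kidney (y axis), edgeR with TMM scaling. Red points are the 2245 genes at least 4-fold higher than in both, blue points the 359 at least 4-fold lower, grey points all others, and dotted lines mark 2 on the log2 scale. The higher set reaches beyond 10 on both axes, and 23.2% of all genes were called higher than both at any size.

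The 2245 genes were picked by this contrast, so their levels describe the set and test nothing. They took between 19 and 34.4% of the counts of an intestine library, with a median of 28.4%. In liver they took 0.288 to 0.483%, and in head kidney 0.64 to 0.938%. Of the 2245 genes, 1467 (65.3%) averaged under 1 CPM in both other tissues, against 15.3% of all genes tested. In 1635 (72.8%), every intestine library lay above all 18 others, against 13.3% of all genes. The median log2 fold change was 4.76 against liver, or 4.40 with genes at the counting floor placed at their bound, and 4.59 against head kidney. The median intestine level was 10.6 CPM, beside 11.7 CPM for all tested genes, and the set held 58 of the 103 tested genes that averaged over 1000 CPM. At the threshold, the last gene inside had a smaller log2 fold change of 2.001 and the first outside 2.0, both without a name. Of the genes called higher than both tissues but outside the set, 1247 had a smaller log2 fold change between 1 and 2 and 1210 one under 1.

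The left-out head kidney libraries took no part in choosing these genes. In control replicate 1, 294 of 926 counts fell on them, a share of 31.7% (95% Clopper-Pearson interval 28.8 to 34.9%, counting error only). That share lies inside the range of the intestine libraries and above all 18 others. Control replicate 3 had 1.37%, above the head kidney range and below the intestine range.

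**Figure D2:**
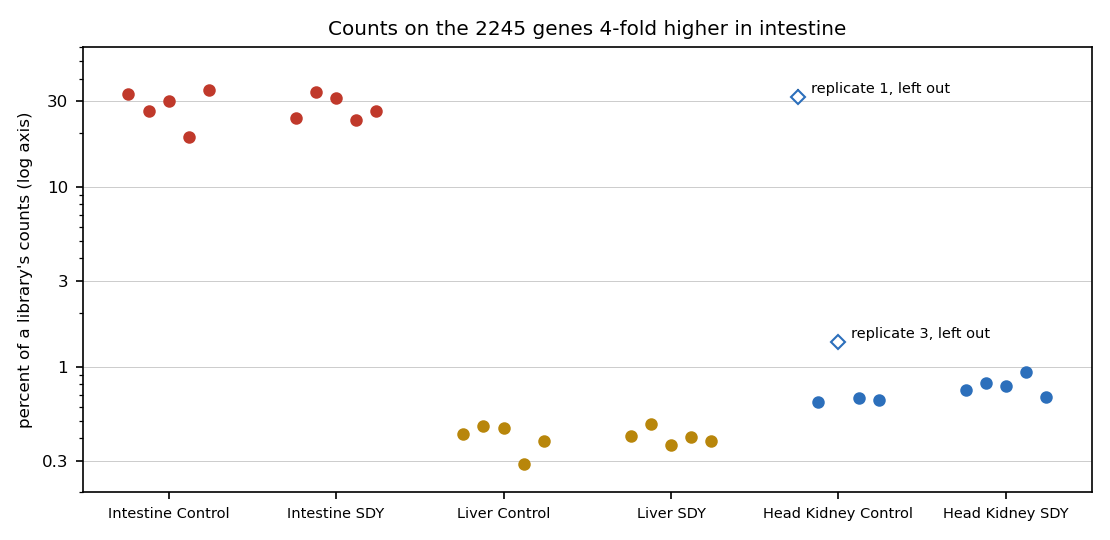
Percent of each library's counts on the 2245 genes (y axis, log scale) by tissue and diet, 1 point per library, with open diamonds for the 2 head kidney libraries left out. Intestine libraries sit between 19 and 34.4%, liver and the 8 head kidney libraries under 1%, and the left-out replicate 1 at 31.7%.

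Digestive enzymes of the brush border were mostly higher in intestine than in both tissues. Sucrase-isomaltase (si, chr2:21728239-21800537, forward strand), which splits sugars from starch, ran from 1273 to 12162 CPM in intestine, with a median of 7146 CPM. In head kidney it stayed at or below 1.2 CPM. Liver SDY replicate 2 had 9.86 CPM of si, while the other liver libraries had 0.0564 to 0.97 CPM. By edgeR the log2 fold change was 11.61 against liver (SE 1.04, adjusted p = 7.47e-11) and 14.72 against head kidney (SE 1.27, adjusted p = 4.68e-11). Without that liver library it was 13.43 against liver.

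Peptidases of the same surface were also high in intestine. The aminopeptidase gene enpep ran from 733.5 to 4375 CPM in intestine and stayed at or below 1.89 CPM in liver and 0.4 CPM in head kidney. Enteropeptidase (tmprss15), the protease that activates pancreatic trypsinogen, ran from 101.7 to 481.6 CPM, with 3 counts in all 10 livers and 7 in the 8 head kidney libraries. The neutral ceramidase gene asah2, which lies on an unplaced sequence, ran from 212.3 to 1400.0 CPM, against at most 1.76 CPM elsewhere. For each of these genes every intestine library lay above all 18 others, as in 13.3% of all genes tested and 72.8% of the 4-fold higher set.

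Over the whole hydrolase list, 11 of 13 tested members were higher than in both tissues (84.6%, beside 23.2% of all genes), 10 of them at least 4-fold. The median log2 fold changes were 9.33 against liver and 10.75 against head kidney. The other 2 members went the other way (15.4%, beside 15.7% of all genes), both at least 4-fold, beside 1.77% of all genes. The membrane metallopeptidase mme averaged 1.21 CPM in intestine, 19.8 CPM in liver and 119.9 CPM in head kidney. The tissue-nonspecific alkaline phosphatase alpl averaged 2.95, 12.4 and 252.8 CPM in the same order.

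The scaffold of the microvilli was high with the enzymes, although several of its members were shared with liver. Of 14 tested structure genes, 9 were higher than in both (64.3%, beside 23.2% of all genes), 5 of these at least 4-fold. Lower than in both was 1 (7.14%, beside 15.7%). The medians were 1.37 against liver and 6.48 against head kidney. The protocadherin cdhr2, which links the tips of microvilli, ran from 1173 to 2520 CPM in intestine, with a median of 2217 CPM, against at most 5.36 CPM in liver and 0.2 CPM in head kidney. Its partner anks4b ran from 153.7 to 277.4 CPM, was at 4.85 to 18.2 CPM in liver, and had 1 count in all 8 head kidney libraries. For pdzk1, a scaffold that holds transporters at the membrane, the intestine range was 443.5 to 948.3 CPM and the highest value elsewhere 3.78 CPM. The actin-capping gene eps8 was called in neither direction, with means of 17.3 CPM in intestine, 114.7 CPM in liver and 0.908 CPM in head kidney.

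Genes of cell contacts were mostly higher than in both tissues. Of 21 tested junction and keratin genes, 15 were higher than in both (71.4%, beside 23.2% of all genes) and 0 were lower. The medians were 1.63 against liver and 4.63 against head kidney. The liver-intestine cadherin cdh17, which holds neighbouring cells together, ran from 1169 to 2766 CPM in intestine, 13.3 to 31.5 CPM in liver and 0 to 0.383 CPM in head kidney. Against liver the log2 fold change came to 5.26 (SE 0.25, adjusted p = 7.08e-17 by edgeR). The pore-forming claudin cldn15 had 335.6 to 464.4 CPM, 13.5 to 56.3 CPM and at most 0.175 CPM in intestine, liver and head kidney. The cell polarity gene pard6b had 65.8 to 116.0 CPM in intestine and at most 13 CPM elsewhere. Intestine lay above both other tissues without overlap in all 3 genes, as in 13.3% of all genes tested. In CPM, liver lay above head kidney in cdh17 and cldn15, while in pard6b their ranges overlapped. The TMM-scaled log2 fold changes of pard6b were 2.09 against liver and 3.46 against head kidney, so on that scale liver was the higher of them.

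Transporters of sugars, amino acids and peptides were mostly higher than in both. Of 11 tested, 7 were higher than in both tissues (63.6%, beside 23.2% of all genes), 5 of them at least 4-fold, and 0 were lower. The median was 2.88 against liver and 2.75 against head kidney, or 2.15 with genes at the floor placed at their bound. The sodium-glucose cotransporter slc5a1 had 713.0, 1261 and 1427 CPM as its lowest, median and highest intestine values, 4.08 to 20.3 CPM in liver, and 2 counts in all 8 head kidney libraries. The difference from liver was 5.87 on the log2 scale (SE 0.28, adjusted p = 8.22e-17 by edgeR). The proline transporter gene slc6a20 ran from 522.8 to 861.1 CPM, with 7 counts over all 10 livers and at most 3.39 CPM in head kidney. The inositol transporter slc5a11 had 36.2 to 110.7 CPM in intestine and at most 0.501 CPM elsewhere. Not every transporter of the list followed. The nucleoside transporter slc28a3 averaged 0.0504 CPM in intestine and 2.4 CPM in liver, with 0 counts in head kidney.

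The salt and bicarbonate transport list holds both markers, so its counts are not independent of them. Of 18 matched genes 13 were tested. Of these, 7 were higher than in both tissues (53.8%, beside 23.2% of all genes), both markers among them, and 5 at least 4-fold. Lower than in both was 1 (7.69%, beside 15.7%). The medians were 1.76 against liver and 1.96 against head kidney. The potassium channel gene kcnj15 ran from 98.8 to 197.6 CPM in intestine and stayed at or below 0.323 CPM elsewhere. The chloride channel gene clcn2 had 21.0 to 48.1 CPM, and did not pass 1.84 CPM elsewhere. The anion channel cftr, which secretes chloride at the upper face of epithelia, averaged 28.9 CPM in intestine, 3.84 CPM in liver and 2.05 CPM in head kidney. The sulfate transporter slc26a1 was the member called lower, with means of 5.29, 4.15 and 16.6 CPM and log2 fold changes of -0.88 and -1.38. Its CPM mean in intestine was thus above that in liver while its TMM-scaled difference was below 0.

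Fat uptake divided into genes of the intestine and genes shared with liver. Of 15 tested genes, 6 were higher than in both tissues (40%, beside 23.2% of all genes) and 0 lower. The median was 0.70 against liver and 9.70 against head kidney. Among the intestinal ones, the fatty acid receptor cd36 had 141.7, 2084 and 4388 CPM as its lowest, median and highest values, and at most 3.72 CPM in liver and 0.2 CPM in head kidney. Monoacylglycerol acyltransferase mogat2, which rebuilds triglyceride from absorbed fat, ran from 105.6 to 300.0 CPM and did not exceed 0.841 CPM elsewhere. The acyl-CoA synthetase acsl5 ran from 271.2 to 1230.0 CPM, against at most 0.811 CPM. The lipoprotein receptor scarb1 had 276.9 to 1366 CPM in intestine, 6.96 to 24.1 CPM in liver and 0.881 to 2.35 CPM in head kidney. All 4 were above every other library, as were 13.3% of all genes tested, and were called with adjusted p of at most 1.32e-12 in both contrasts (edgeR).

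Genes of lipoprotein particles, which liver makes too, were high in both organs. The transfer protein gene mttp averaged 317.4 CPM in intestine and 144.2 CPM in liver, a TMM-scaled log2 fold change of -0.08, against 0.0214 CPM in head kidney. The lipase activator apoc2 averaged 453.2 CPM in intestine and 2455 CPM in liver, a log2 fold change of -3.65. The fatty acid binding protein fabp1 averaged 318.4 CPM in intestine, 106.8 CPM in liver and 0.024 CPM in head kidney, with 0.37 on the log2 scale against liver.

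Bile acid and foreign compound genes included 4 of 8 tested that were higher than in both tissues (50%, beside 23.2% of all genes). None was lower, and the medians were 0.37 and 4.76 against liver and head kidney. The efflux pump gene abcb1 had 567.4 to 2215 CPM in intestine, 51.5 to 117.2 CPM in liver and 0.117 to 1.15 CPM in head kidney. The sodium-dependent bile acid transporter slc10a2, which in mammals recovers bile acids in the ileum, ran from 7.9 to 146.3 CPM in intestine around a median of 18 CPM. It stayed at or below 0.108 CPM in liver and 1.59 CPM in head kidney.

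Vitamin and metal genes were higher than in both tissues in 6 of 13 (46.2%, beside 23.2% of all genes) and lower in 1 (7.69%, beside 15.7%). The medians were 0.50 and 1.1. Vitamin C transporter slc23a1 ran from 108.8 to 263.5 CPM in intestine, against 3 counts over all 10 livers and at most 0.23 CPM in head kidney. The ubiquitous paralog slc23a2 was the member called lower, averaging 18.1 CPM in intestine against 51.2 and 48 CPM in liver and head kidney. The copper importer slc31a1 had 350.0 to 577.7 CPM, with 85.5 to 129.2 CPM in liver and 38.8 to 53.6 CPM in head kidney.

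**Figure D3:**
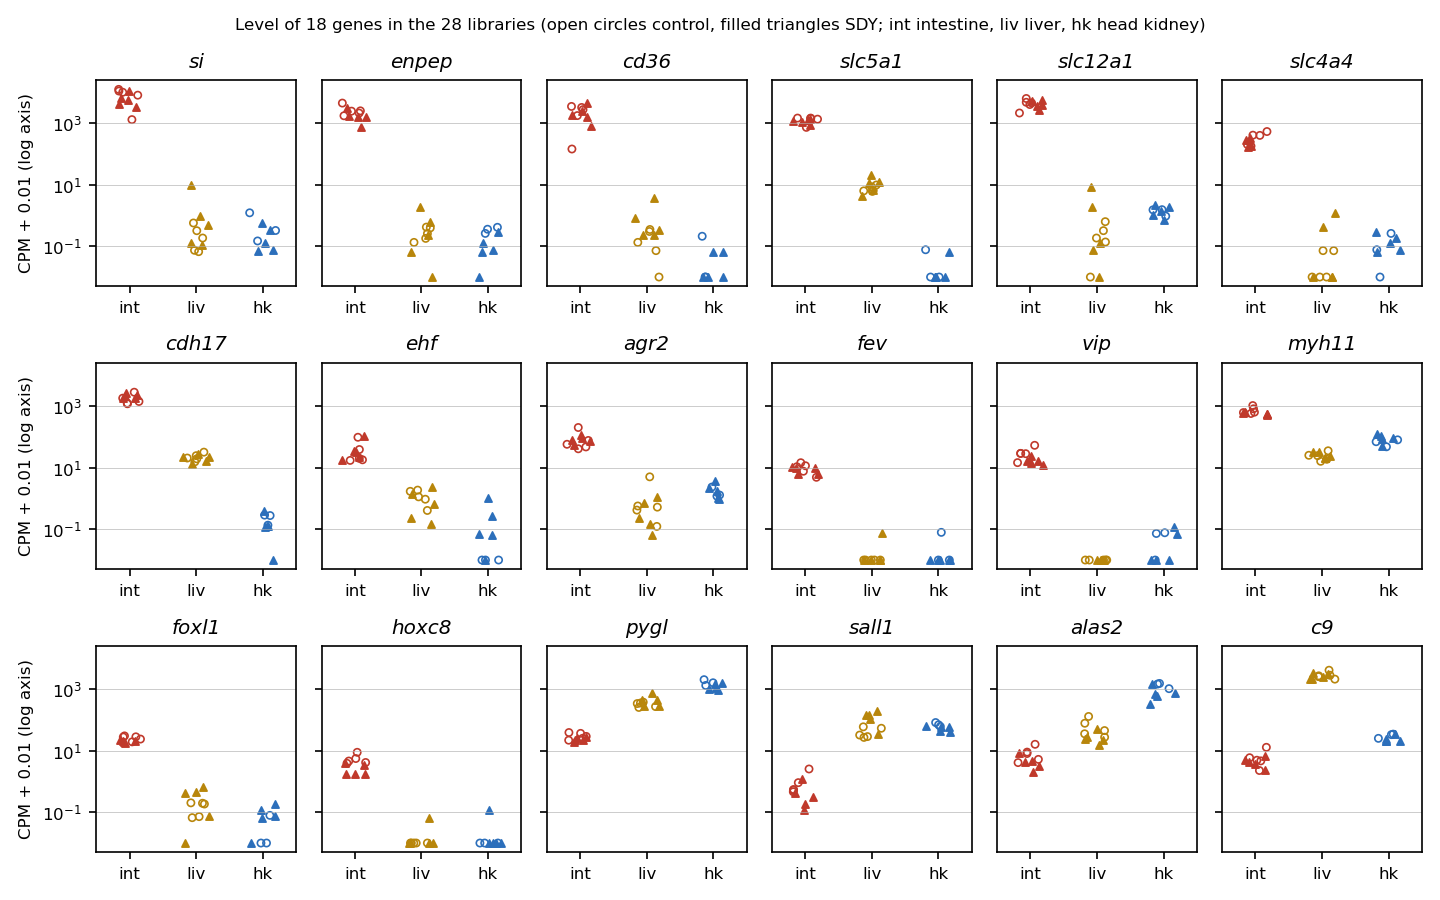
Level of 18 genes in each of the 28 libraries (y axis, CPM on a log scale with a small constant added so that zeros show at the bottom), intestine in red, liver in ochre and head kidney in blue, with open circles for control and filled triangles for SDY. The first 14 panels, from si to hoxc8, show intestine libraries above all others, and pygl, sall1 and c9 show them below all others, with alas2 overlapping liver.

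Among regulators of gut epithelium some were higher than in both tissues and others were shared with liver. Of 17 tested transcription factor genes, 7 were higher than in both tissues (41.2%, beside 23.2% of all genes), 3 of them at least 4-fold. Lower than in both was 1 (5.88%, beside 15.7%), and the medians were -0.08 against liver and 5.05 against head kidney. The epithelial factor ehf averaged 39.8 CPM in intestine, 1.07 CPM in liver and 0.175 CPM in head kidney, and gata5 108.4, 1.38 and 6.29 CPM. In head kidney gata5 stood at 35.9 and 13.8 CPM in SDY replicates 3 and 4, the libraries whose interrenal list averaged 291.8 and 124.6 CPM, and at or below 0.221 CPM in the other 6. The part of interrenal cells in this was not tested. Those shared with liver were hnf4a, with means of 249.5, 117.7 and 0.187 CPM and a difference of -0.08 from liver on the log2 scale, and gata4, nr1h4 and creb3l3, with log2 fold changes against liver between -0.57 and 0.05 and against head kidney of at least 9.18. The gut and pancreas factor pdx1 averaged 0.783 CPM in intestine and 41.0 CPM in liver, whose libraries averaged 910.1 to 4697 CPM over the exocrine pancreas list. The part of pancreas cells in this difference was not tested.

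Secretory cell types of the epithelium were traced next. Of 9 tested goblet and mucus genes, 5 were higher than in both tissues (55.6%, beside 23.2% of all genes). Lower than in both was 1 (11.1%, beside 15.7%), and the medians were 1.91 and 1.62. The disulfide isomerase agr2, needed for mucin folding in mammals, had 40.5, 73.0 and 198.4 CPM as its lowest, median and highest intestine values, 0.0564 to 4.98 CPM in liver and 0.938 to 3.55 CPM in head kidney. The mucin glycosylation enzyme galnt12 ran from 37.9 to 81.3 CPM, against at most 16.4 CPM elsewhere. The branching enzyme gcnt3 was not called, with means of 0.421, 0.189 and 0.164 CPM.

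Enteroendocrine genes were mostly higher than in both. Of 23 matched genes 21 were tested. Of these, 17 were higher than in both tissues (81%, beside 23.2% of all genes), 15 of them at least 4-fold, and 0 were lower. The median was 6.34 against liver, or 5.37 with 10 members at the floor placed at their bound, and 4.72 against head kidney. The serotonin cell factor fev ran from 4.81 to 14.3 CPM in intestine and had 1 count in all livers and 1 in all head kidney libraries. Such members passed the filter only through intestine, so part of the list's share was nearly fixed beforehand. The irritant-sensing channel trpa1 had 20.3 to 42.1 CPM, against at most 0.461 CPM elsewhere. Tryptophan hydroxylase tph1, which makes serotonin, averaged 10.5 CPM in intestine, 0.039 CPM in liver and 0.506 CPM in head kidney. The peptide genes adcyap1 and vip, which enteric neurons also express, had 22.1 to 81.9 CPM and 12 to 52.5 CPM. With 0 counts in all 10 livers, adcyap1 was at least 968.4-fold higher and vip at least 537.6-fold higher than in liver (floor of 3 counts over the group). Chromogranin chga, a general marker of endocrine cells, averaged 0.999 CPM in intestine and 0.778 CPM in head kidney and was not called.

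Neurons and glia of the gut wall were represented as well. Of 26 matched genes 22 were tested. Of these, 16 were higher than in both tissues (72.7%, beside 23.2% of all genes), 15 at least 4-fold, and 0 lower. Members near 0 elsewhere, vip among them, passed the filter only through intestine, so part of this share was nearly fixed beforehand. The medians were 4.77 against liver (4.56 with members at the floor placed at their bound) and 3.75 against head kidney. The receptor erbb3, which glia use and epithelium can express too, had 124.5, 198.4 and 369.1 CPM, against at most 5.69 CPM in liver and 1.75 CPM in head kidney. The tachykinin precursor tac1 averaged 16.8 CPM in intestine and 0.263 and 0.245 CPM in liver and head kidney. The receptor ret averaged 7.22 CPM in intestine but 101.1 CPM in liver.

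Most tested genes of muscle and connective tissue of the wall were higher than in both organs. Of 18 tested smooth muscle genes, 15 were higher than in both (83.3%, beside 23.2% of all genes), 10 at least 4-fold, 0 lower and 3 neither. The medians were 3.37 and 3.48. Smooth muscle myosin myh11 had 520.1, 603.2 and 1021.0 CPM as its lowest, median and highest intestine values, 15.9 to 34.9 CPM in liver and 47.0 to 124.9 CPM in head kidney (log2 fold changes 3.53, SE 0.18, and 3.32, SE 0.19, edgeR adjusted p of at most 8.37e-15). The thin filament gene lmod1 ran from 45.6 to 120.1 CPM and pdlim3, of the contractile apparatus, from 38.6 to 83.8 CPM, each above every other library.

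Of 25 tested genes of gut mesenchyme and its signals, 16 were higher than in both (64%, beside 23.2% of all genes). Lower was 1 (4%, beside 15.7%) and 8 were neither, with medians of 1.13 against liver and 2.80 against head kidney. The mesenchymal factor foxl1, which marks cells under the epithelium in mammals, ran from 17.9 to 29.8 CPM, against at most 0.643 CPM elsewhere. The Wnt amplifier rspo1 had 17.4 to 56.2 CPM in intestine, at most 0.405 CPM in liver and 1.96 CPM in head kidney. The member called lower was wnt9a, a ligand averaging 0.116 CPM in intestine and 21.5 CPM in liver.

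Hox genes, which record position along the body axis, were mostly higher than in both tissues as well. Of 21 matched genes, 15 passed the filter on low counts and were tested. Of these, 12 were higher than in both tissues (80%, beside 23.2% of all genes), 10 at least 4-fold, and 0 lower. Their median was 5.82 against liver, or 4.72 with 10 members at the floor placed at their bound, and 2.84 against head kidney. The hoxc8 gene ran from 1.66 to 8.74 CPM in intestine, with 1 count in all livers and 2 in all head kidney libraries. The hoxc6 gene ran from 1.36 to 5.07 CPM and was at least 58.5-fold higher than in liver, which had 0 counts. Both genes passed the filter only through intestine, so part of the list's share was nearly fixed beforehand. Neither hoxd3 nor hoxd9 was called in a common direction, with means of 0.825 and 0.614 CPM in head kidney against 0.371 and 0.175 CPM in intestine.

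Crypt, stem cell and Wnt response genes were closer to the background. Of 19 tested, 6 were higher than in both tissues (31.6%, beside 23.2% of all genes and 18.4% of genes with a symbol). Lower were 2 (10.5%, beside 15.7% and 20.4%), and the medians were 0.21 and 1.73. The Wnt feedback gene nkd1 ran from 10.5 to 32 CPM, against at most 1.73 CPM elsewhere. The Notch ligand dll1 ran from 3.89 to 59.3 CPM, a wide range, against at most 0.896 CPM. The Notch target hes1 had 8.16 to 16.3 CPM and at most 2.23 CPM in the other tissues.

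**Figure D4:**
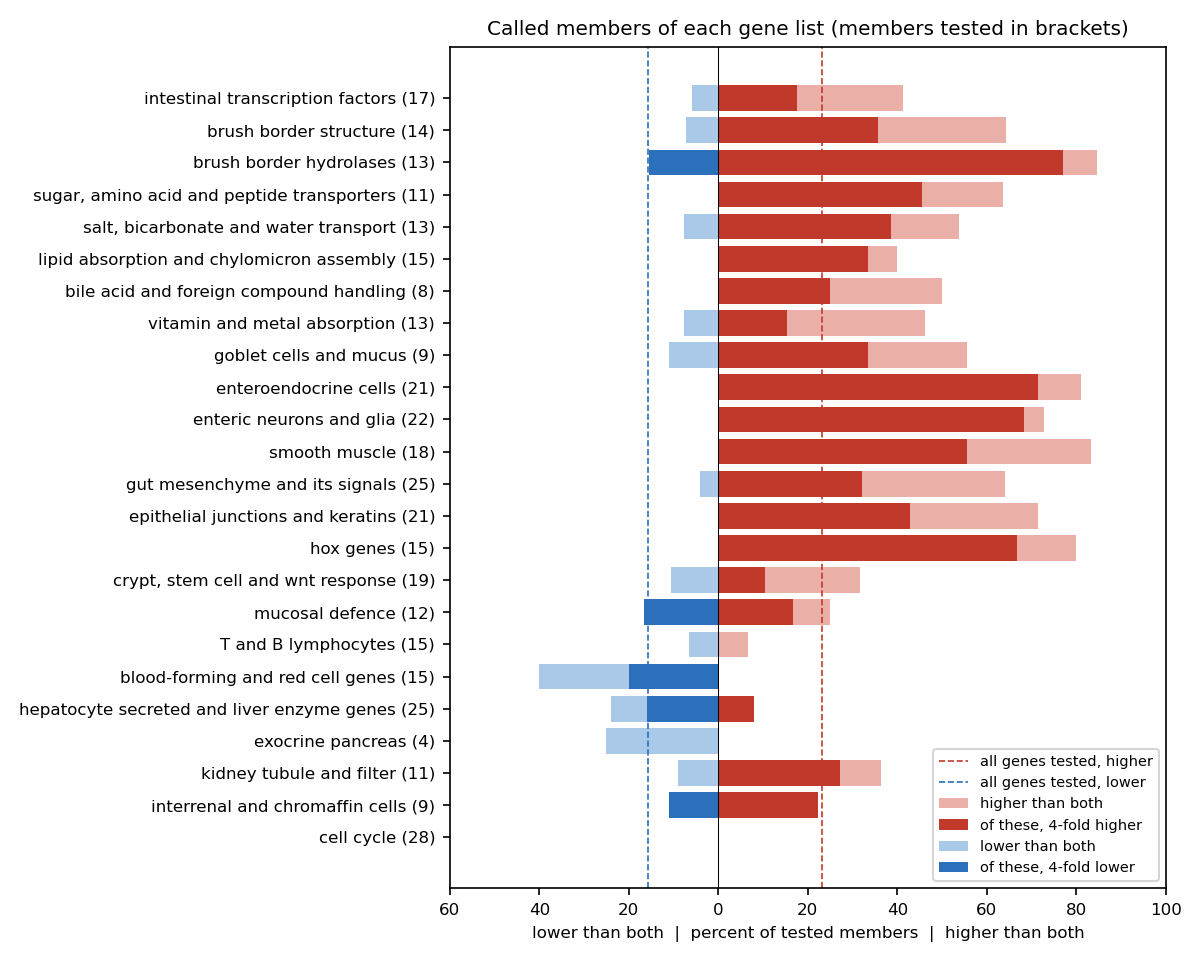
Percent of the tested members of each list called higher than both tissues (right of 0) or lower (left of 0), the darker part of each bar for members at least 4-fold apart, with dashed lines for the share of all genes tested, 23.2% higher and 15.7% lower. Enteroendocrine, smooth muscle, hox and hydrolase lists reach 80% or more on the right, and the cell cycle list has no called member.

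Markers of other cell types gave mixed counts. Blood-forming and red cell genes had 0 of 15 higher and 6 lower than in both tissues (40%, beside 15.7% of all genes and 20.4% of genes with a symbol). At least 4-fold lower were 3, beside 1.77% of all genes. Against liver alone 6 were higher and 6 lower, beside 43.4% and 35.5% of all genes, with a median of 0.01. Against head kidney 0 were higher and 14 lower, beside 38.2% and 35.3% of all genes, with a median of -2.55. The heme synthesis enzyme alas2 had 1.96, 4.88 and 15.9 CPM as its lowest, median and highest intestine values, 15.6 to 127.1 CPM in liver and 331.0 to 1498 CPM in head kidney, with log2 fold changes of -3.89 (SE 0.36) and -7.02 (SE 0.42), edgeR adjusted p = 1.19e-10 and 1.48e-14. The red cell membrane gene rhag had 1.89 to 7.03 CPM in intestine and 442.1 to 932.1 CPM in head kidney. For both genes the intestine and liver ranges overlapped in CPM.

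Hepatocyte genes were mostly lower than in liver, where 22 of 25 were called lower and 2 higher, beside 35.5% and 43.4% of all genes. The median was -11.38. Against head kidney 6 were higher and 6 lower, beside 38.2% and 35.3% of all genes, with a median of -0.17. In both contrasts together 2 were higher, 6 lower (24%, beside 15.7% of all genes and 20.4% of genes with a symbol) and 17 neither. At least 4-fold apart were 2 of the higher and 4 of the lower ones, beside 11.1% and 1.77% of all genes. The complement component c9 ran from 2.24 to 12.7 CPM in intestine, 2020.0 to 4016 CPM in liver and 20.3 to 34.4 CPM in head kidney. The urea cycle enzyme ass1 ran from 0.118 to 2.28 CPM, against 34.0 to 96.0 and 5.23 to 19.8 CPM. A pair of genes on this list went the other way. The gluconeogenic enzyme pck1 averaged 28.7 CPM in intestine, 0.543 CPM in liver and 0.0492 CPM in head kidney, and the protease hgfac 1.56, 0.0542 and 0.188 CPM.

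Lymphocyte genes lay between the other organs. Of 15 tested T and B cell genes, 1 was higher than in both tissues (6.67%, beside 23.2% of all genes) and 1 lower (6.67%, beside 15.7%). The medians were 2.23 against liver and -2.21 against head kidney. The T cell receptor component cd3e was the higher one, at 51.2 to 175.9 CPM in intestine, 1.52 to 5.79 CPM in liver and 44.4 to 131.8 CPM in head kidney, so that intestine and head kidney overlapped. The lower one was btk, a B cell signalling kinase, at 16.4 to 45.3 CPM against 114.6 to 211.0 CPM in head kidney. Its log2 fold change against liver was -0.50 and turned to 0.71 with plain library totals, its CPM there being 11.1 to 23.5. With plain totals cd3e missed the threshold against head kidney (0.41, adjusted p = 0.117). Cell cycle genes had 0 of 28 called in a common direction. Against liver 25 were higher, beside 43.4% of all genes, and against head kidney 28 were lower, beside 35.3%.

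In calls of any size mucosal defence genes were close to the background, with 3 of 12 higher (25%, beside 23.2% of all genes and 18.4% of genes with a symbol). Lower were 2 (16.7%, beside 15.7% and 20.4%). Of the higher genes 2 were at least 4-fold apart (beside 11.1% of all genes), and so were both lower ones (beside 1.77%). The cytokine il17d had 7.56 to 16.8 CPM in intestine and at most 5.69 CPM elsewhere. The flagellin receptor tlr5 was lower, at 0.23 to 1.54 CPM against 1.57 to 3.72 CPM in liver and 14.2 to 29.4 CPM in head kidney. The other lower gene, mst1, a plasma protein of liver origin, ran from 0.207 to 5.65 CPM in intestine against at least 1726 CPM in liver and 3.44 to 13.3 CPM in head kidney, which its highest intestine value, in control replicate 2, overlapped. Of the 4 exocrine pancreas genes, 0 were higher than in both tissues. Lower was 1 (25%, beside 15.7% of all genes), the secretory cell factor bhlha15. Against liver all 4 were lower, beside 35.5% of all genes, with a median of -3.92. Against head kidney 3 were higher and 1 lower, beside 38.2% and 35.3%, with a median of 4.69 (4.09 with members at the floor placed at their bound). Kidney tubule genes had 4 of 11 higher (36.4%, beside 23.2% of all genes) and 1 lower (9.09%, beside 15.7%). Among the higher ones were both intestinal markers, which tubule cells also use, so their share rests in part on genes given as markers of intestine. Of 9 interrenal and chromaffin genes, 2 were higher than in both tissues (22.2%, beside 23.2% of all genes), scarb1 among them. The 1 called lower (11.1%, beside 15.7%) was star, the cholesterol carrier of steroid-making cells, at most 0.156 CPM in intestine. All 3 were at least 4-fold apart, beside 11.1% of all genes higher and 1.77% lower. In head kidney star stood at 1704 and 656.6 CPM in SDY replicates 3 and 4 and at 1.27 to 11.2 CPM in the other 6 libraries.

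Among the 359 genes at least 4-fold lower, median log2 fold changes were -3.65 against liver and -3.55 against head kidney (-3.57 with genes at the floor placed at their bound), and in 136 (37.9%) every intestine library lay below all 18 others, against 1.34% of all genes tested. They took 0.082 to 0.13% of intestine counts, 1.61 to 2.38% of liver counts and 2.74 to 8.01% of head kidney counts. Liver-type glycogen phosphorylase pygl, which releases glucose from glycogen, had 18.7, 25 and 38.3 CPM as its lowest, median and highest intestine values, 249.2 to 734.7 CPM in liver and 932.6 to 1983 CPM in head kidney. By edgeR the log2 fold change was -5.07 against liver (SE 0.26, adjusted p = 5.64e-16) and -5.39 against head kidney (SE 0.27, adjusted p = 3.38e-16). The glycogen-targeting subunit ppp1r3c was lower as well, at 9.72 to 36.4 CPM against 128.8 to 900.3 and 57.2 to 86.3 CPM.

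Other leading genes of the lower set have different roles. The developmental transcription factor sall1 ran from 0.104 to 2.51 CPM in intestine, against at least 26.6 CPM in liver and 41.1 CPM in head kidney. The carboxypeptidase subunit cpn1, a plasma protein, had 12.6 to 23 CPM, against at least 126.4 and 102.4 CPM. For nucb2, the precursor of nesfatin, values were 14.5 to 33.5 CPM against at least 99.9 and 232.1 CPM. In each of these, as in pygl and ppp1r3c, no intestine library reached the lowest value of another tissue.

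Features that the calls did not use also differed. Of the 2245 higher genes, 635 (28.3%) had a symbol, against 45.4% of all genes tested, so most of the set has no name in these files. The unnamed gene LOC115583589 ran from 2.14 to 43201 CPM across intestine libraries, and LOC115574657 from 4152 to 21283 CPM. The set was also unevenly placed on the genome. An adjoining gene of the same set was found for 965 of its genes (43%), against 19.8% of all genes tested that adjoined one. Chromosome 10 had the highest share of its tested genes in the set, at 20.3%, and chromosome 22 the lowest, at 8.03%. The longest unbroken run held 21 genes, all without a name, at chr10:5461216-5790988, and 28 runs held 5 or more. Near-identical neighbours can split or share reads, so single members of such runs are uncertain. Overlap of spans with another gene was as common in the set (15.4%) as among all tested genes (16.2%).

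Among the genes named here, enpep, cdhr2, asah2, pdzk1, slc23a1, agr2, il17d, gata4, pdx1, gcnt3, c9, bhlha15, nucb2 and faah have spans that overlap another gene. Reads were counted without regard to strand and for every gene they overlapped, so counts of these genes can hold reads of their partner.

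The 10 intestine libraries differed strongly among themselves in some of these genes. Over the 596 higher genes with at least 50 CPM, the SD of log2 CPM had a median of 0.49, against 0.34 over all 3824 genes at that level, and ran from 0.09 to 4.13. The most variable named genes were ace (SD 2), a peptidase, gjd3 (SD 1.93), a gap junction gene, meltf (SD 1.83), an iron-binding melanotransferrin, slc13a5 (SD 1.74), a citrate transporter, and faah (SD 1.68), a fatty acid amide hydrolase. Control replicate 4 had the lowest ace, at 46.3 CPM, followed by SDY replicate 4 at 448.3 CPM and a range of 1150 to 5228 CPM in the other libraries. For slc13a5 both of these libraries had 6.9 CPM, against 24 to 192.5 CPM in the others. In cd36 they had 141.7 and 763.5 CPM, and in si 1273 and 3322 CPM, again the lowest values of all 10.

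The opposite held for another set of genes in the same pair of libraries. There faah stood at 720.8 and 504.8 CPM, against 31.3 to 224.5 CPM in the other 8 libraries. For gjd3 the pair had 423.2 and 433.7 CPM, against 13.5 to 219.0 CPM. The bile acid transporter slc10a2 had 146.3 and 91.9 CPM, against 7.9 to 62.0 CPM. Both libraries were thus low in several brush border and fat uptake genes and high in slc10a2. Not every brush border gene followed. For enpep the pair had 1695 and 1664 CPM, against 733.5 to 4375 CPM in the others. For anks4b it had 274.8 and 277.4 CPM, against 153.7 to 260.1 CPM. The mean of the cell cycle list was highest in the same libraries, at 54 and 34.2 CPM, against 4.16 to 29.5 CPM in the others, and the goblet list stood at 36.5 and 27 CPM against 20.4 to 30.3 CPM. The blood-forming list averaged 22.7 and 21.8 CPM there and 11 to 22.1 CPM in the others. The part of these cell types in the spread was not tested. Without both libraries, a choice made after their values were seen, the 4-fold sets held 2200 and 359 genes, of which 2132 and 328 were in the sets used here.

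Some genes of the set hardly moved among the 10 libraries. The scaffold gene lrrc1 ran from 84.4 to 110.8 CPM (SD 0.13), the exchange factor arhgef16 from 68.0 to 95.4 CPM (SD 0.14), the actin-binding synpo from 126.8 to 177.0 CPM (SD 0.15) and the transcription factor casz1 from 156.3 to 202.7 CPM (SD 0.15). The claudin cldn15 had an SD of 0.16. Each of these 5 was at least 4-fold higher than in both tissues.

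**Figure D5:**
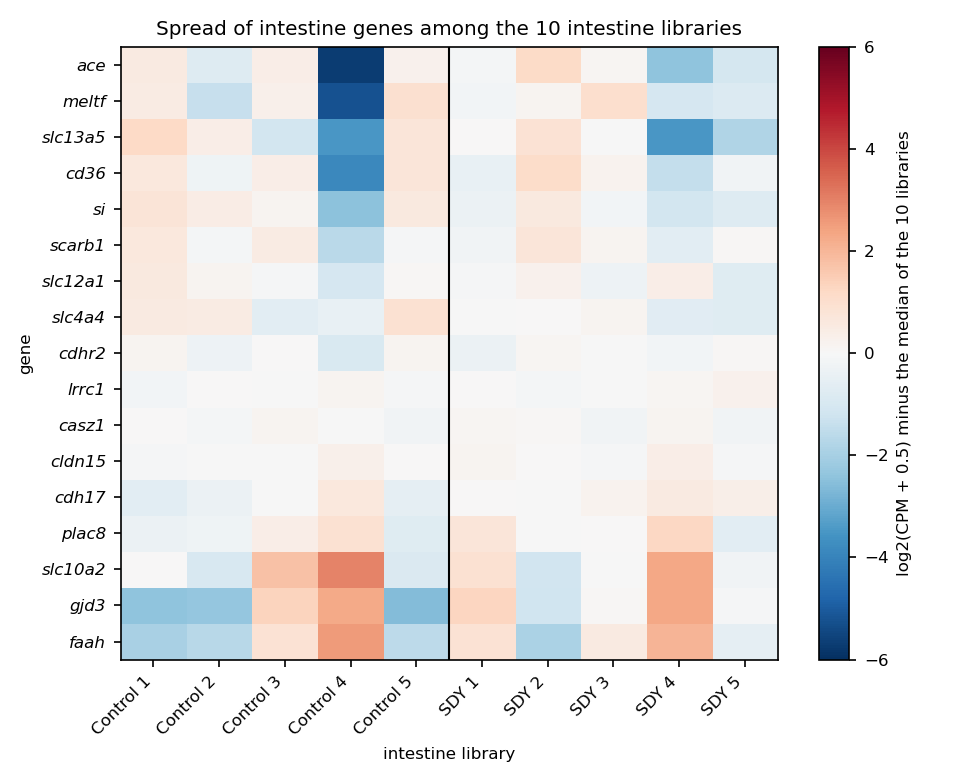
Difference of each intestine library from the median of the 10, on the log2(CPM + 0.5) scale, for 17 genes that are higher in intestine (rows), with control libraries left of the line and SDY libraries right of it. Control 4 and SDY 4 are low for ace, slc13a5, cd36 and si and high for slc10a2, gjd3 and faah, while lrrc1 and casz1 stay near 0 throughout.

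Across the study's conditions, no gene passed the test of diet within intestine. Of 18221 genes tested, 0 were called by edgeR and 1175 (6.45%) had an unadjusted p under 0.05. Among the 4-fold higher genes it was 215 of 2122 (10.1%), with a median log2 fold change of -0.11. These unadjusted counts varied when single libraries were left out. Without control replicate 4 they were 3620 of 18414 genes (19.7%) and 382 of 2167 in the set (17.6%), the share of the set then being the lower one. Without control replicate 2 they were 704 (3.82%) and 137 of 2163 (6.33%), the lowest counts on leaving out 1 library. Leaving out any library but control replicate 4 gave at most 7.92% of all genes and 12% of the set. In each of these fits the share of the set was the higher one. DESeq2 called 46 genes over all and 10 of the 4-fold genes in the same 10 libraries. Without SDY replicate 2, edgeR called 3 genes, 2 of them in the 4-fold sets. Among genes of the 4-fold sets with a symbol, the smallest unadjusted p belonged to sost, an inhibitor of Wnt signalling, with 18.1 ± 2.15 CPM in control libraries and 10.1 ± 1.52 CPM in SDY libraries (mean ± SD, n = 5 each). On the log2 scale the difference, SDY minus control, came to -0.84 with an SE of 0.18 (adjusted p = 0.739 by edgeR). The motor protein kif5c (1.27 ± 0.519 and 0.508 ± 0.0741 CPM, log2 fold change -1.31, SE 0.32) and ppp1r17, a phosphatase inhibitor (1.61 ± 0.548 and 0.728 ± 0.109 CPM, -1.12, SE 0.29), followed with the same adjusted p.

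Of the lists, 4 had the highest shares of members at an unadjusted p under 0.05 by edgeR, which 6.45% of all genes had. It was 9 of 20 neuron and glia genes (45%), with a median of -0.50, and 5 of 12 hox genes (41.7%), with a median of -0.62. It was 6 of 18 smooth muscle genes (33.3%), with a median of -0.38, and 7 of 24 genes of gut mesenchyme (29.2%), with a median of -0.39. Without control replicate 2, whose neuron list averaged 22.6 CPM against 9.85 to 18.3 CPM in the other libraries, the counts of neuron and hox genes were 3 of 20 and 2 of 12, and the medians -0.25 and -0.46. For smooth muscle and mesenchyme they were 1 of 18 and 3 of 24, with medians of -0.26 and -0.32. The shares of these 4 lists were then 15, 16.7, 5.56 and 12.5%, beside 3.82% of all genes. Leaving out each library in turn gave 3 to 10 neuron and glia genes, 2 to 6 hox genes, 1 to 10 smooth muscle genes and 3 to 12 mesenchyme genes. Over all genes the same fits gave 3.82 to 19.7%. The 12 mesenchyme genes came from the fit without control replicate 4, which also gave the 19.7%.

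The difference between tissues itself was also tested for a change with diet. Of 20296 genes, 2 were called for intestine minus liver (0.00985%) and 1 for intestine minus head kidney (0.00493%). In intestine the AP-1 gene fosl2 had 51.2 ± 11.8 CPM in control and 49.6 ± 9.36 CPM under SDY, while in liver it had 7.24 ± 0.533 and 47.6 ± 29 CPM (SD, n = 5 each, change of the log2 difference -2.70, SE 0.43, edgeR adjusted p = 0.024). The methyltransferase gene hemk1 had 4.28 ± 1.24 and 3.25 ± 1.04 CPM in intestine and 1.59 ± 0.496 and 3.70 ± 0.647 CPM in liver (-1.61, SE 0.26, adjusted p = 0.024). The unnamed LOC115584268 had 0.47 ± 0.296 and 0.843 ± 1.76 CPM in intestine (n = 5 each), and in head kidney 16.4 ± 2.21 CPM in 3 control libraries against 0.011 ± 0.0247 CPM in 5 SDY libraries (adjusted p = 0.0347). None of the 3 is among the 4-fold genes. Leaving out single libraries gave 0 to 8 calls against liver and 0 to 2 against head kidney, and a fit with the replicate number as a block gave 0 calls in both. At an unadjusted p under 0.05 the counts were 1179 (5.81%) against liver and 1428 (7.04%) against head kidney.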

How the data were processed

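RNA was extracted with TRIzol and sequenced from directional poly(A) libraries, per the labels' protocols. The authors deposited raw read counts per gene, made with featureCounts 1.5.3 on the assembly fSpaAur1.1 with every overlapping gene counted and no strand option, per the file headers. Trim Galore 0.4.4, FastQC, HISAT2 2.1.0 and DESeq2 are named in the submitters' processing notes. Of 25722 identifiers, 10196 had a symbol.

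Counts were fitted with edgeR 4.0.16 (R 4.3.3, limma 3.58.1): TMM scaling, filterByExpr by tissue and diet, robust quasi-likelihood test, tissue and diet as terms. A call needed a Benjamini-Hochberg adjusted p of at most 0.05 in both contrasts with one sign. The SE given with a fold change is its absolute size divided by the square root of the F value of its test. Diet within intestine used its 10 libraries, and its change of tissue differences used 6 group means. Totals were 9276705 to 20580440 counts. The procedure was run on simulated data in which most genes did not differ between tissues. That run could not check the scaling, because in the real data many genes differ. Libraries of a group differed beyond sampling noise.

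The members and the 24 lists (17 for gut, 7 for other cell types) were chosen with earlier results of these data known. Named genes with a symbol were, by rule, the 12 with the highest level in the 4-fold higher set, 6 of the lower set by the smaller of the other tissues' means, 3 per gut list and 2 per other list by p, both markers, the 5 most and 5 least variable, and the 3 with the smallest p for diet. Genes called in neither direction, the shared regulators and lipid genes, mme, alpl, ehf, gata5, cftr, slc26a1, slc23a2, tph1, tac1, wnt9a, star, pck1, hgfac and the genes of the diet by tissue test were chosen after their values were seen. Alternatives were plain totals, DESeq2 1.42.0, no filter, a replicate block, all 30 libraries, each diet alone, overlapping genes left out, a test against the fold itself, and libraries left out. Some genes named by this rule are not reported here.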

Additional observations from a re-analysis of the deposited data

Results flagged for a closer look

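Within groups of 5 intestine libraries, 226 gene or list levels were examined for a single library far from the other 4, and 24 were found. The cutoff is passed by chance in about 5% of groups of independent, normally distributed values. The levels here come from the same libraries, lists hold some of the genes, and some genes were picked for their spread. The count is therefore not compared with that share.

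Control replicate 4 stood apart in 12 of them. It was low in gata6 (192.0 CPM, others 294.3 to 334.5), slc5a1 (713.0, others 1316 to 1427), trpa1 (20.3, others 36.2 to 42.1) and sost (14.3, others 18.6 to 19.3), and in the means of the transcription factor list (71.7 CPM) and the lipid absorption list (178.6 CPM). It was high in galnt12 (81.3 CPM), agr2 (198.4), ass1 (2.19), faah (720.8) and cldn15 (434.6), and in the cell cycle list (54 CPM, others 4.16 to 18.2).

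Control replicate 2 was high in sall1 (2.51 CPM), lmod1 (120.1), mst1 (5.65), the smooth muscle list (199.9) and the exocrine pancreas list (277.0 CPM, others 0.68 to 24.9). Control replicate 1 was high in enpep (4375 CPM) and control replicate 3 in slc6a20 (791.4 CPM).

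Among SDY libraries, replicate 1 was high in rhag (7.03 CPM) and the neuron and glia list (14.8), replicate 2 in gata6 (324.9) and the sugar, amino acid and peptide transporter list (314.0), and replicate 3 in sall1 (1.18).

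The tissue difference changed with diet for fosl2 (-2.70) and hemk1 (-1.61) against liver and for LOC115584268 (10.44) against head kidney, on the log2 scale by edgeR. For the last gene head kidney SDY libraries held at most 0.0552 CPM, so the size depends on the fit's prior count.

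Libraries outside the comparison also carried intestinal counts. Head kidney control replicate 1 had 31.7% of its 926 counts on the 4-fold higher genes and replicate 3 had 1.37%, against 0.64 to 0.938% in the 8 libraries used.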

How the results depend on the processing

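With plain library totals, 1123 genes were lower than in both tissues, 14942 higher and 2490 lower than in liver, against 3188, 8799 and 7208. With all 30 libraries 634 genes were 4-fold lower, and with a test against the 4-fold difference itself 192, against 359. In control libraries alone 1882 were lower than in both. DESeq2 called 46 genes for diet in intestine (10 of the 4-fold genes, against 0), and 20 and 38 for the change of the tissue difference with diet, against 2 and 1. Both of these last counts were 0 with the replicate block. The other counts of calls under these alternatives stayed within 1.5 times.

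Reversed were btk against liver (0.71, plain totals) and list medians: mucosal defence against liver (0.86 with plain totals, 1 without a filter) and against head kidney (0.56, control libraries), kidney tubule against head kidney (-0.93, all 30 libraries) and interrenal against head kidney (3.68, control libraries). Of 480 list medians under the alternatives other than single libraries left out, 111 more moved by over 1 SD of the intestine libraries, by -4.49 to 3.96 on the log2 scale, and 8 of these changed sign. The most moved with plain totals (27), SDY libraries alone (21), control libraries alone (17), all 30 libraries (15) and overlapping genes left out (12). With single libraries left out 26 of 1344 moved, by -0.70 to 1.92. The cause was not tested. Besides btk and cd3e against head kidney (also 0.63, adjusted p = 0.121 by edgeR, in SDY libraries alone), no gene named by the rule lost its call where it was tested. Genes chosen after their values were seen were not followed through the alternatives. The test against the 4-fold difference was read for the counts of genes only.

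Leaving out each library gave 4609 to 4751 genes higher and 2897 to 3431 lower than in both, 8664 to 8981 and 6877 to 7366 against liver, 7635 to 7780 and 6827 to 7333 against head kidney, and 2200 to 2323 and 346 to 379 in the 4-fold sets. Diet calls in intestine ranged from 0 to 3 (0 to 2 in the 4-fold sets), and calls for the change with diet from 0 to 8 against liver and from 0 to 2 against head kidney.

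Over 18 same-numbered pairs of libraries the correlation of deviations from the group means ran from -0.13 to 0.18, with 1 pair over 0.1. Deviations in different tissues need not go together even where 1 fish gave both. This check therefore cannot tell whether fish were shared. The replicate block gave 4595 and 3127 genes higher and lower than in both, 2259 and 351 in the 4-fold sets, 0 for diet in intestine and 0 for both changes with diet. Depth limits genes near the floor of 3 counts.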
